A study of Mus musculus with 2 samples.

Results

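The translation initiation factor genes Eif4g2, Eif4g1, Eif4a1, Eif4a2, Eif4b, Eif4h, Eif5a, Eif5, Eif1 and Eif3c were examined for peaks called after chromatin immunoprecipitation that targeted KLF4 (also named GKLF), a DNA-binding protein with zinc fingers. A peak was assigned to a gene when its midpoint lay in the gene span of the NCBI RefSeq annotation of assembly GRCm38.p6 or within 10 kb of that span. The 10 genes, of 21887 protein-coding genes on the chromosomes, were chosen by the WT peaks already seen at them, so the number, position and score of their peaks are given as a description and not tested. The material was frozen tissue that the labels call BCA, from atherosclerotic lesions of C57BL/6 mice on a Western diet, with 1 library labelled WT and 1 labelled KO. The labels describe a mixture of smooth muscle cells, epithelial cells, macrophages and other cells. They name neither the deleted gene nor the cells in which it was deleted, nor the age of the animals or whether tissue was pooled, though KLF4 and smooth muscle cells appear in the title of the series. A peak list does not measure expression, so marker genes could not check the labelled tissue.

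Translation initiation factors bring the ribosome to messenger RNA and set it on the start codon. The eIF4F complex joins the cap-binding protein eIF4E, a scaffold (eIF4G) and an RNA helicase of the DEAD-box class (eIF4A), whose unwinding is stimulated by eIF4B and eIF4H. The eIF3 complex and eIF1 act on the small ribosomal subunit, eIF5 drives hydrolysis of the GTP held by eIF2 once the start codon is found, and eIF5A, despite its name, acts mainly in elongation and termination. These genes are expressed in nearly all cells.

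All 10 genes held a WT peak and none had a KO peak. The WT list placed 28 peaks at them, and the midpoint of each lay in the gene's own span. Across protein-coding genes, 6.22% had a WT peak within 10 kb and 3.79% had one in the span, but the genes were chosen for their WT peaks and nothing is read from that contrast. A KO peak lay within 10 kb of 2.34% of protein-coding genes, and in the span of 1.63%, and the count of 0 among 10 genes is near that background. No overlap of 1 bp or more with a KO peak was found for any of the 28, while 83 of all 1264 WT peaks in protein-coding spans (6.57%) had one. With 1 library per label there is no replicate error and no test of WT against KO was possible. The lists hold 2251 WT and 1153 KO peaks without read counts, so sequencing depth is unknown, and where a peak is missing the signal may still lie below the threshold of the calling program.

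Promoters of these genes are shown because KLF4 is known, from other promoters, to bind CACCC and related GC-rich boxes, while no WT peak reached the promoters listed here. RefSeq promoter windows, which run from 250 bases before to 50 bases after a transcript start, were listed for 9 of the 10 genes, all but Eif4g2. A WT peak overlapped none of the listed windows of these 9 genes. Across 17492 protein-coding genes, each with its window farthest upstream, 19 (0.109%) had a WT peak over it, so 0 of 9 is near the background. The 250 bases before the start are printed for Eif1 and Eif4h, whose peaks lay closest to a start, for Eif5a, which had the highest-scoring peak, and for Eif4b, which had the most matches to CACCC. They are RefSeq sequence of GRCm38.p6, 5′ to 3′ on the strand of the gene, and capitals mark matches to CACCC or to CCNCNCCC on either strand (GGGTG and GGGNGNGG where the match is on the other strand).
Eif1, chr11:100319699-100319948, plus strand: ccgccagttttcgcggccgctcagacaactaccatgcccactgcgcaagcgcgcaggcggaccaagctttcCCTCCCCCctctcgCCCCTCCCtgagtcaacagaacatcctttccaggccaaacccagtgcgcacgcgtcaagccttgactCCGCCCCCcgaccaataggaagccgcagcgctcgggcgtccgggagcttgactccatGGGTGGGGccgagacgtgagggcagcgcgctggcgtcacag
Eif4h, chr5:134639410-134639659, minus strand: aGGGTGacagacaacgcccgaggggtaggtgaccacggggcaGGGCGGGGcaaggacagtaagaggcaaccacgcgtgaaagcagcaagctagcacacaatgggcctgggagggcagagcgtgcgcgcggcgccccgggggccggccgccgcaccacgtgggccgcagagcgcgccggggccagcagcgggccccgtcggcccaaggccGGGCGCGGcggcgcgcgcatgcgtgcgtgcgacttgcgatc
Eif5a, chr11:69921959-69922208, minus strand: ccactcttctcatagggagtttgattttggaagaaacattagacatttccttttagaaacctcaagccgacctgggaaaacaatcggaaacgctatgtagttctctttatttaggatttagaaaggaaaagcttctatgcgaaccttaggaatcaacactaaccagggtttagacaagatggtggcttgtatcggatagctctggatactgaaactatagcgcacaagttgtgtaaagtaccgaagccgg
Eif4b, chr15:102073523-102073772, plus strand: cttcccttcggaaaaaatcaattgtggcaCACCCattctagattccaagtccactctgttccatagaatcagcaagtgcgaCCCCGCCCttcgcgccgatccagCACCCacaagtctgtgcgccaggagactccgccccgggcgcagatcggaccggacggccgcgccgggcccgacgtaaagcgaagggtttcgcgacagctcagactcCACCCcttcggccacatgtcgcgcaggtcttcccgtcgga
The Eif1 bases held 1 CACCC and 4 CCNCNCCC matches, of which 1 overlapped the CACCC. Eif4h had 1 CACCC and 2 CCNCNCCC matches, and Eif4b 3 and 1. Eif5a had 0 of either in the bases before the farthest upstream of its 6 listed starts, and those before its other starts were not counted. Of the 9 genes, 5 had a CACCC and 7 a CCNCNCCC in these 250 bases, compared with 53.3% and 52.1% of the 17492 promoters. A match is a string of letters and not a measured site. In these same bases the GC content ranged from 41.2% in Eif5a to 74.8% in Eif4h, with a median of 62.0% over the 9 genes and 55.2% over all promoters.

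**Figure D1:**
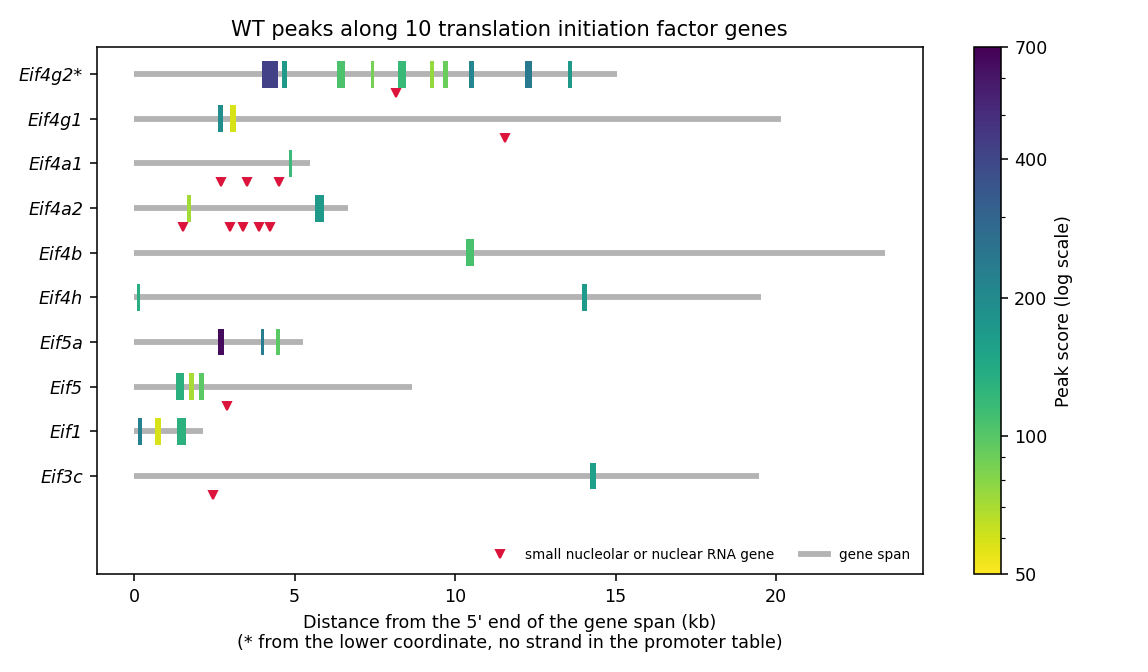
WT peaks along the 10 genes, drawn to scale in kb from the 5′ end of each span (Eif4g2 from its lower coordinate), with peak width as bar width and peak score as colour on a log scale. Eif4g2 holds 10 peaks spread over 9.67 kb, the 3 peaks of Eif5 lie within 0.871 kb, and red triangles mark small nucleolar or nuclear RNA genes, of which a peak overlaps 1.

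The scaffold genes differed most in the number of peaks. Eif4g2 (gene 13690, chromosome 7, 111067985 to 111083030) encodes DAP5, an eIF4G relative that lacks the part that binds eIF4E and serves cap-independent initiation. It held 10 WT peaks, and 1 protein-coding gene held more. At least 2 WT peaks in the span were seen in 1.08% of protein-coding genes, 3 or more in 0.535% and 10 or more in 0.00914%. In order of coordinate the scores were 426, 168, 105, 86.7, 119, 75.8, 91.7, 209, 238 and 168. The highest lay at 111071953 to 111072479 and was also the widest of the 28 peaks, at 527 bp. Gaps between neighbouring Eif4g2 peaks ran from 95 to 1593 bp (median 776 bp), and the peaks covered 13.4% of the span. The first peak began about 4 kb into the span from the lower coordinate, and none lay within 1 kb of that end. By contrast, Eif4g1 (gene 208643, chromosome 16, 20672720 to 20692883), the canonical scaffold of eIF4F, held 2 peaks in a span of 20.2 kb, against 15.0 kb for Eif4g2. Both lay near its 5′ end, at 20675332 to 20675495 (score 193) and 20675708 to 20675876 (score 58.5), 13.4% and 15.2% of the way along the span. The lower of these scores is the lowest of the 28.

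The helicase pair held 1 and 2 peaks. Eif4a1 (gene 13681, chromosome 11, 69666936 to 69672423) encodes the main helicase of eIF4F. It had 1 peak at 69667505 to 69667591, scoring 117 and 87 bp wide, 88.8% of the way along the span and 612 bp from its 3′ end. Eif4a2 (gene 13682, chromosome 16, 23107468 to 23114132), its close paralog, had a peak at 23109115 to 23109250 with a score of 72.1 and one at 23113089 to 23113382 with a score of 168. The stronger lay at 86.5% of the span, and the weaker at 25.7%. The stronger Eif4a2 peak and the Eif4a1 peak thus both lay close to the 3′ end of their spans.

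The genes of the helicase cofactors had isolated peaks. Eif4b (gene 75705, chromosome 15, 102073773 to 102097173) had 1 peak, at 102084121 to 102084369, with a score of 108 and 44.8% of the way along the longest of the 10 spans, 23.4 kb. Eif4h (gene 22384, chromosome 5, 134619872 to 134639409) had 2 peaks with 13782 bp between them. One, at 134639240 to 134639312 (score 134), was the narrowest of the 28 at 73 bp, and its near edge lay 97 bases inside the gene from the start site. The other, at 134625292 to 134625457 (score 166), lay at 71.8% of the span.

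Among the genes that act on the small ribosomal subunit, the peaks of Eif1 and Eif5 were grouped and that of Eif3c stood alone. Eif1 (gene 20918, chromosome 11, 100319949 to 100322099), which guards the choice of start codon, has the shortest span, 2.15 kb, and 3 peaks covered 27.6% of it. They lay at 100320075 to 100320203 (score 221), 100320602 to 100320769 (58.7) and 100321266 to 100321562 (130), and the first began 126 bases from the start site. Eif5 (gene 217869, chromosome 12, 111538101 to 111546753) had peaks with scores of 131, 70.7 and 98.0 from 5′ to 3′, separated by 141 and 178 bp and all between 16.6% and 24.4% of the span. Merging peaks within 500 bp left 1 peak each at Eif1, Eif5 and Eif4g1. Eif3c (gene 56347, chromosome 7, 126546911 to 126566366), a core subunit of eIF3, had 1 peak at 126551981 to 126552159, with a score of 158, at 73.5% of the span.

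Eif5a had the highest score of the 10 genes. The gene (276770, chromosome 11, 69916712 to 69921958) encodes a member of the only known protein family carrying the amino acid hypusine. Its peak at 69919154 to 69919339 scored 654 and ranked 72 of 2251 in the WT list. The next 2, at 69917915 to 69918015 and 69917427 to 69917542, scored 229 and 98.5. From 5′ to 3′ the 3 peaks lay at 51.7%, 76.1% and 85.3% of the span, so the scores fell toward the 3′ end. The table lists 6 promoter windows for Eif5a, and the nearest of their starts lay 1291 bases from a peak.

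**Figure D2:**
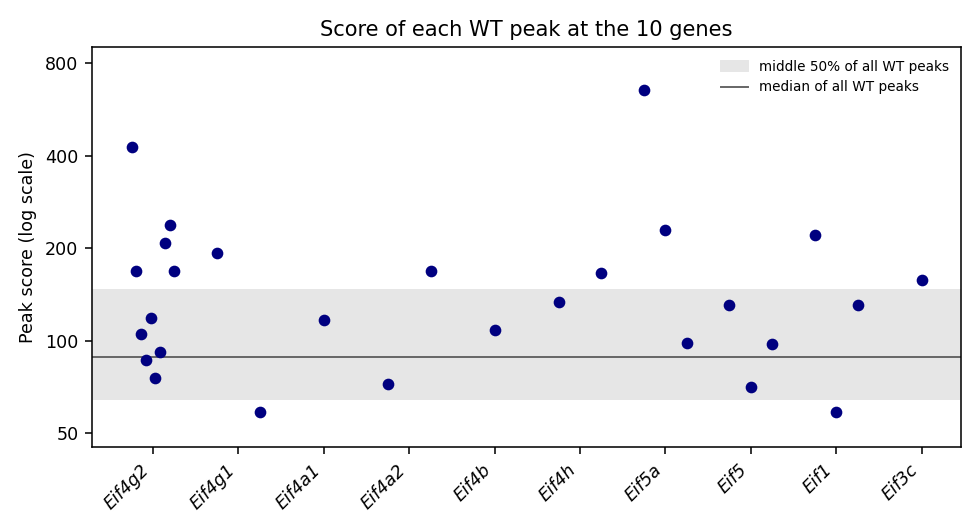
Score of each WT peak by gene on a log axis, with the points of a gene in 5′ to 3′ order (Eif4g2 by coordinate), the line at the median of all WT peaks, 88.3, and grey over the middle 50%. The top peak of every gene lies above the line, and the Eif5a peak at 654 is the highest. The genes were chosen by their WT peaks, so nothing is read from the contrast with the list.

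The scores at these genes spanned most of the WT list, from a peak with 15.1% of the list below it to one with 96.8% below it. A score is the authors' own value, taken here to be −10 times log10 of a p-value, and was used within a list only. The 28 peaks had a median score of 131 (58.5 to 654), and the 1264 WT peaks in protein-coding spans had one of 89.4. Of the 28, 22 scored at or above the list's median of 88.3, 12 at or above its upper quartile of 147, and 1 was among the top 5%. Every gene had a peak at or above the median, and 7 had one at or above the upper quartile, leaving out Eif4a1, Eif4b and Eif5. The genes were chosen by their WT peaks, and the 28 are themselves part of the peaks they are set beside. For both reasons nothing is read from the contrast in score. Widths were much like the rest of the list, with a median of 167 bp (73 to 527 bp) at these genes, 155 bp in all protein-coding spans and 156 bp in the whole list.

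Peak density varied more than peak score. The number of WT peaks per kb of span ran from 0.0427 in Eif4b and 0.0514 in Eif3c to 0.572 in Eif5a, 0.665 in Eif4g2 and 1.39 in Eif1. The median of the 10 genes was 0.241, and that of the 829 protein-coding genes with a WT peak in the span was 0.0460. Among those 829, 7 genes had a density above that of Eif1, 33 above Eif4g2 and 41 above Eif5a. Short spans raise this measure, since 1 peak in 2.15 kb already gives a high value. The choice of the 10 genes by their WT peaks raises it too, so nothing is read from the contrast with the 829 genes.

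Along the spans, the peaks lay at all positions inside the genes and none lay in the flanks. For the 9 genes with a listed strand, 5 of 18 peaks were in the first 20% of the span, 4, 2 and 4 in the next parts and 3 in the last 20%. The median position was 39.5% of the span from the 5′ end. For the 666 other genes with a WT peak in the span and a listed strand, 1005 pairs of gene and peak gave a median of 66.1%, with 15.5% in the first 20% and 33.3% in the last 20%. Eif5, Eif4g1 and Eif1 supplied all but 1 of the 5 peaks nearest the 5′ end, and peaks of 1 gene are not independent, so the difference was not tested. Within 1 kb of the 5′ end lay 3 of the 18 peaks, 2 in Eif1 and 1 in Eif4h, a share of 16.7% against 9.55% for the other genes. The Eif1 span is only 2.15 kb, so 1 kb takes up a large part of it. The share thus depends on span length and on the choice of genes, and nothing is read from it. Over all protein-coding genes, 38.0% of pairs of gene and WT peak within 10 kb lay outside the span, and 0 of 28 did here. That share counts a peak inside a gene again as a flank pair of each neighbour. Counted as peaks, 1264 of the 1433 WT peaks within 10 kb of a protein-coding gene lay in a protein-coding span. Since the 10 genes were chosen by their WT peaks, nothing is read from this contrast. Exons were not used here, so whether a peak lay in an exon, an intron or a UTR is not given.

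**Figure D3:**
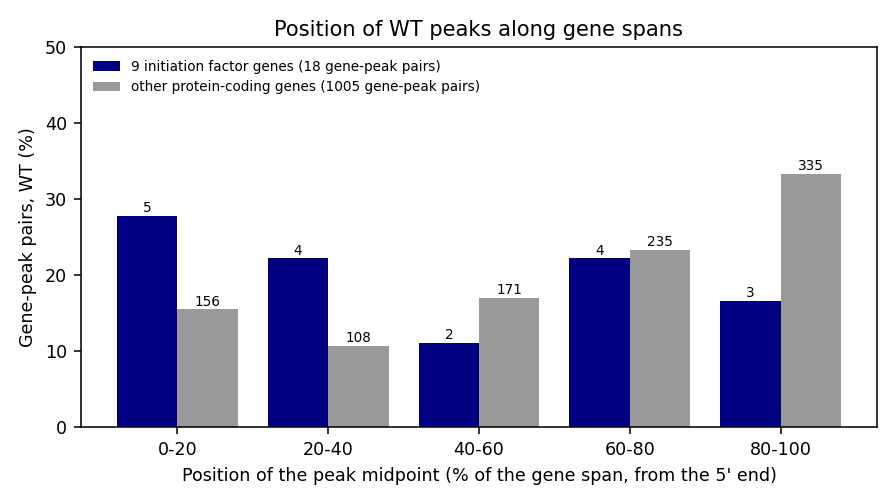
Position of the midpoint of WT peaks as a percentage of the gene span from the 5′ end, for 9 initiation factor genes with a listed strand (18 pairs of gene and peak) and for other protein-coding genes (1005 pairs), in 5 bins with counts above the bars. The first 20% holds 27.8% of the former and 15.5% of the latter, and the last 20% holds 16.7% and 33.3%.

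Several of these genes carry small nucleolar RNAs, which guide chemical changes in ribosomal and other RNAs and are released from introns of their host. The annotation places 11 small nucleolar RNA genes in 5 of the 10 spans, with 5 in Eif4a2, 3 in Eif4a1 and 1 each in Eif4g2, Eif4g1 and Eif5. A single peak touched such a gene, the Eif4g2 peak at 111076220 to 111076463 (score 119), which shared 8 bp with LOC115486847. The weaker Eif4a2 peak lay 95 bp from Snord2, and the Eif4a1 peak 243 bp from LOC115487878. In Eif5 the nearest peak lay 661 bp from Snora28, and in Eif4g1 8380 bp from Snord66. Of the 18 peaks in these 5 genes, 3 lay within 250 bp of a small nucleolar RNA gene, and the other 15 lay 617 to 8761 bp away. A short span with several such genes, as in Eif4a2 and Eif4a1, can bring a peak near one wherever it falls. No comparison with other positions was made, and nothing is read from these counts.

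Neighbouring genes shared a peak with 4 of the 10 genes under the 10 kb window, and none of these 7 protein-coding neighbours had a WT or KO peak in its own span. That is near the background, since 3.79% of protein-coding genes had a WT peak in the span and 1.63% a KO peak. The Eif4a1 peak lay 1.38 kb from Cd68, which encodes a lysosomal glycoprotein used as a macrophage marker, 4.90 kb from Mpdu1 and 5.56 kb from Senp3, a SUMO protease gene. The gap between the Cd68 and Eif4a1 spans is 765 bp, and the WT peak counted for Cd68 therefore lies in Eif4a1. Gps2, the gene of a nuclear corepressor subunit, overlaps the Eif5a span by 345 bp, but the nearest Eif5a peak has its midpoint 0.429 kb outside Gps2, and 3.66 kb from Neurl4. Rfc4, a replication factor C subunit gene, overlaps Eif4a2 by 185 bp, and the stronger Eif4a2 peak lay 0.713 kb from it. The Eif4h peak at 134625292 lay 5.59 kb from Lat2. Eif4g2, Eif4g1, Eif4b, Eif5, Eif1 and Eif3c had no such neighbour.

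Distances to the nearest peak beyond the 10 kb window are listed as a description. The lists hold only 2251 WT and 1153 KO peaks for the whole genome, and the same distances were not computed for other genes. The nearest further WT peak lay 10.9 kb from Eif4g1, in Psmd2, a proteasome subunit gene, just outside the limit. For the other 9 genes it lay over 50 kb away, from 54.1 kb (Eif3c, in Atxn2l) and 54.7 kb (Eif1, in Jup) to 1266 kb (Eif4a2, in Map3k13). The nearest KO peak lay 92.1 kb from Eif4h and 177 kb from Eif1, and 4545 kb away at the farthest, from Eif5a.

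Disabled copies of these genes were looked up by name, so copies not named after them would be missed. Of 3 pseudogenes named after Eif1, none held a peak in either list. Eif5al3-ps, named after the Eif5a family, held 1 WT peak with a score of 215, and Eif4a-ps4, named after eIF4A without saying which gene, held 1 with a score of 167. Neither held a KO peak. The share of all pseudogenes with a peak is not given here, so nothing is read from these counts. The treatment of reads that match several places is not given in the sources used here, and whether reads of Eif5a, Eif4a1 or Eif4a2 contributed to these peaks was not tested. None of the 28 peaks at the genes themselves lay in a pseudogene span.

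The rest of the initiation machinery was counted in the same way. The 10 genes had been taken out of this family for their WT peaks, so the WT count in the remainder partly follows from that choice. Of 45 further genes of initiation factors, their subunits, binding proteins and kinases, 4 (8.89%) had a WT peak within 10 kb, against 6.22% of all protein-coding genes, and 2 (4.44%) had a KO peak, against 2.34%. In its own span, 1 had a WT peak. This was Eif2ak2, the gene of the RNA-activated kinase PKR, whose 2 peaks (scores 475 and 184) lay in the pseudogene Gm6548. The WT peaks counted for Eif1ad (99.3) and Eif2a (59.9) lay in the neighbouring genes Banf1 and Serp1. Those counted for Eif4enif1, the gene of an eIF4E transporter, lay in Sfi1, and of these 5, out of 9 WT peaks in Sfi1, 2 overlapped KO peaks. Eif4g3, another eIF4G scaffold gene, had a KO peak in its span (54.9) and no WT peak. None of the genes of the eIF2 subunits, of eIF4E or of the eIF3 subunits other than Eif3c had a WT or KO peak within 10 kb.

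Genes of later steps of translation and its regulators had WT peaks in 7 of 20 cases (35.0%, against 6.22% of all protein-coding genes), all in their own spans. This list too was chosen with earlier results of these data known, so its shares are a description and nothing is read from the contrast. Eef1a1, which brings aminoacyl-tRNA to the ribosome, held 3 (scores 358, 183 and 79.7), and Eef2, the translocation factor gene, held 2 (336 and 97.4). Eef1g (279) and Eef1b2 (99.3), subunits of the exchange factor, held 1 each. Etf1, the gene of the release factor that reads stop codons, held 3 (85.6, 60.2 and 55.1), and Gspt1 (54.1), its partner, and Paip2 (67.5), a repressor acting through poly(A) binding protein, held 1 each. The midpoint of the Gspt1 peak also lay in 2610020C07Rik. In KO, 3 of the 20 had a peak (15.0%, against 2.34%), namely Eef2k (62.7), Eefsec (53.9) and, through one 9.07 kb away in Gpr1, Eef1b2 (53.9). The midpoint of the Eef2k peak also lay in Gm15774. With only those peaks kept that reach the median score of their list, 4 of the 20 had a WT peak.

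**Figure D4:**
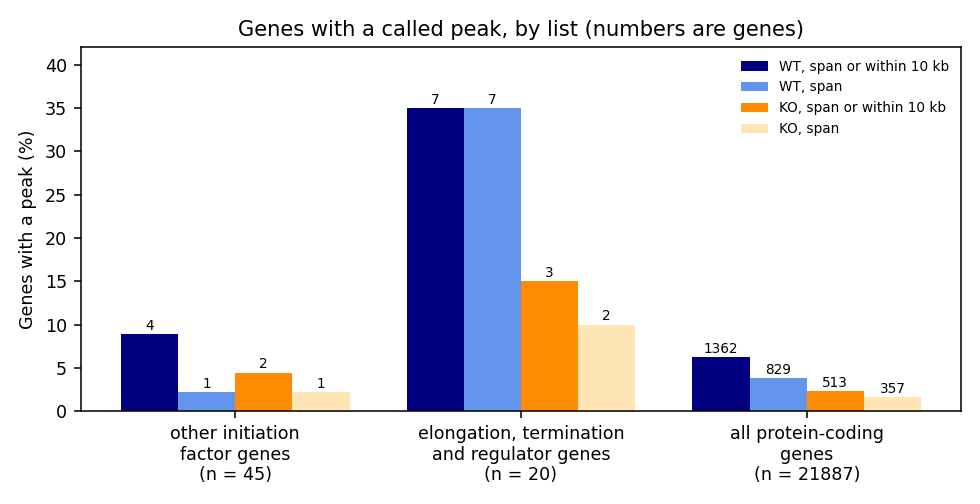
Percentage of genes with a called peak in 2 lists of translation genes outside the 10 and in all protein-coding genes, by library and by window, with the number of genes above each bar. The elongation, termination and regulator list reaches 35.0% in WT (7 of 20), the other initiation factor genes 8.89% (4 of 45) and all protein-coding genes 6.22%. Both translation lists were chosen with earlier results of these data known.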

How the data were processed

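Chromatin immunoprecipitation with sequencing gave 1 library per label. Reads were processed with Bowtie 1.0 and SAMtools 0.1.18 on build mm10, per the submitters' processing notes, and peaks carry MACS names in both deposited lists. For MACS, the version, control and settings were not given in the sources used here. Each deposited peak score (lowest 50.0 in WT and 50.03 in KO) is the authors' value, taken to be −10 times log10 of a p-value, and depends on each library's depth, which is unknown.

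Gene spans and biotypes came from RefSeq GRCm38.p6, whose chromosome coordinates are those of mm10, and strands and promoter sequence from its promoter table, which listed 9 of the 10 genes. Peaks were assigned by midpoint within 10 kb of a span, and sharing needed an overlap of 1 bp. Motifs were counted in the 250 bases before the start farthest upstream. Of the peaks, 73 WT and 53 KO lay off the chromosomes and entered no gene count. No test was made. The genes and lists were chosen with earlier results of these data known. All 10 genes, neighbours within 10 kb of their peaks with a known function, and every listed gene with a peak are named, with the 5 genes outside the lists nearest in peak density among those with at least 3 WT and no KO peaks. The code for assignment by span was checked on simulated peaks planted inside gene spans, where 200 of 200 were assigned to their gene. That check did not use the 10 kb window or look at neighbouring genes. Alternatives covered the window, the assignment, score, list size, merging, pseudogenes and the overlap rule. Python 3.11.15, numpy 2.4.6, pandas 2.3.3 and matplotlib 3.10.9 were used.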

Additional observations from a re-analysis of the deposited data

How the results depend on the processing

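All 10 initiation factor genes had a WT peak and no WT peak there was shared with KO under each window, assignment, score limit, list size, merging and pseudogene setting, and none was shared under either further overlap rule. None had a KO peak under the same settings, apart from the list size, which was not run for KO counts. The 10 genes were chosen by their WT peaks, and none had a KO peak within 50 kb of the span. Settings that drop peaks or ask for more overlap cannot add a shared peak. These outcomes were thus largely fixed beforehand and add no support. The number of WT peaks ranged from 20 with peaks merged to 31 within 50 kb. Single genes moved more. Eif4g1 went from 2 to 5 within 50 kb, Eif4g1 and Eif4a2 from 2 to 1 when peaks below the median score were dropped or the WT list was cut, and with peaks merged Eif4g1 went from 2 to 1 and Eif5 and Eif1 from 3 to 1. The number of other initiation factor genes with a WT peak was 4, and fell to 1 with the span alone and with the nearest gene. The number with a KO peak was 2, and was 1 with the span alone, within 2500 bp, with the nearest gene and at or above the median score. Of the elongation, termination and regulator genes, 7 had a WT peak, and 4 had one when peaks below the median score were dropped or the WT list was cut to 1153 peaks. The remaining 55 of 63 alternative values lay within 1.5 times the reported count. No paired analysis was possible because each label has 1 library, and for the same reason no replicate could be left out. Since the depth is unknown, a peak missing in KO cannot be told apart from one below the calling threshold.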

Other observations

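Genes outside the translation lists were ordered by how near their number of WT peaks per kb of span lay to the median of the 10 genes. They came from 97 genes with at least 3 WT peaks and no KO peak in the span, over the 2 libraries. Of the 10 genes, 3 held 1 WT peak and 3 held 2, so the limit of 3 left out genes with such counts. The 5 nearest to the median of 0.241 were Nfe2l1 (0.239), a transcription factor gene of the proteasome response, Psmd2 (0.244), a proteasome subunit gene, Prrc2a (0.246), Slc20a1 (0.234), a phosphate transporter gene, and Enc1 (0.251). Prrc2a held 4 WT peaks and the others 3 each. Their highest scores ran from 87.1 in Enc1 to 215 in Slc20a1. Psmd2 is also the gene that holds the nearest WT peak outside the window of Eif4g1.

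Of the marker genes of cell types named in the labels, Acta2 (59.6) and Tagln (67.5) of 4 smooth muscle markers and Krt14 (68.3) of 4 epithelial markers had a WT peak in the span, and Krt19 had a KO peak (56.3). The share of all protein-coding genes with a peak in the span was 3.79% in WT and 1.63% in KO. The peak counted for Tagln also lay in Pcsk7. The macrophage markers Cd68 and Itgam were counted only through a peak in Eif4a1 and one in the pseudogene Gm45700 (122), beside 6.22% of protein-coding genes with a WT peak within 10 kb.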
